A study of Mus musculus with 12 samples.

Results

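Broad open domains were stretches of mouse chromatin over which a single ATAC-seq peak ran for at least 2000 bp. ATAC-seq reads out open DNA through a transposase that inserts sequencing adapters wherever it can reach the helix, and a peak is an interval in which such insertions pile up above the local background. In each of 12 deposited peak lists the lines that shared chromosome, start and end were joined into 1 peak, since the caller writes such an interval once for every summit (local maximum) in it. Peaks at least 2000 bp wide on chromosomes 1 to 19 and X were merged over libraries where they overlapped by at least 1 bp, and a merged region was kept as a domain when it was listed at that width in at least 3 libraries. The rule gave 14 domains out of 44 regions that were that wide in any library, and out of 555632 regions formed by merging all listed peaks. The domains were thus chosen by peak width, a measured value, and their widths and covered lengths are given as descriptions without a test.

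The libraries came from hepatocytes that were released from mouse liver by a 2-step collagenase perfusion, 1 library per mouse and 3 mice in each of 4 groups. All 12 mice carried FBXL5F/F, the floxed form of Fbxl5, which encodes a subunit of the ubiquitin ligase that degrades iron regulatory proteins. The control mice carried no Cre, and the deleted mice were Alb-Cre/FBXL5F/F, in which the albumin promoter drives Cre in hepatocytes. A perfusion preparation can hold other liver cells beside hepatocytes. Mice of each genotype ate either the standard diet or the DDC diet (0.1%) for 2 weeks. DDC is a porphyrinogenic compound used to bring about cholestatic liver injury. The study asked how the genotypes differ in chromatin accessibility during cholestasis. The deposited lists held 137004 to 261938 peaks per library and no read counts, so sequencing depth is unknown. Libraries 1 and 3 of the deleted mice on the standard diet stood apart: they listed 261938 and 260515 peaks, and no other library listed more than 202874. Their median fold enrichments were 2.45 and 2.29, while the remaining 10 libraries had 3.33 to 4.37.

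Most accessible sites in a nucleus are short, about the length left free between neighbouring nucleosomes where transcription factors bind. Longer open stretches are known at promoters rich in CpG dinucleotides, where unmethylated CpG islands stay free of stable nucleosomes, and along very actively transcribed genes, where passing polymerases disturb nucleosomes in the gene body and past its end. Hepatocytes transcribe genes of secreted plasma proteins at very high rates. In a bulk preparation, fewer cells with an open site and a less open site in every cell cannot be told apart.

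The domains fell into 3 kinds by the RefSeq annotation. Of the 14, 6 held the start of a protein-coding gene, 6 held or lay within 1 kb of the last base of such a gene without holding a start, and 2 held an end of a gene for which the annotation used gave no strand. The 6 genes whose start lay in a domain were Nfe2l2, Kmt2c, Kdm7a, Dipk2a, Zswim6 and Gstp3, and the whole promoter window from 250 bases before to 50 bases after the start lay in the domain for all 6. The windows of 4 of them are shown because they span the range of CpG content among the 6, from the highest to the lowest. They are RefSeq sequence of GRCm38.p6, the assembly behind mm10, all on the minus strand, 5′ to 3′, with each CpG in capitals. The windows are chr6:39206724-39207023 for Kdm7a, chr9:94538032-94538331 for Dipk2a, chr2:75704614-75704913 for Nfe2l2 and chr19:4059398-4059697 for Gstp3.
Kdm7a: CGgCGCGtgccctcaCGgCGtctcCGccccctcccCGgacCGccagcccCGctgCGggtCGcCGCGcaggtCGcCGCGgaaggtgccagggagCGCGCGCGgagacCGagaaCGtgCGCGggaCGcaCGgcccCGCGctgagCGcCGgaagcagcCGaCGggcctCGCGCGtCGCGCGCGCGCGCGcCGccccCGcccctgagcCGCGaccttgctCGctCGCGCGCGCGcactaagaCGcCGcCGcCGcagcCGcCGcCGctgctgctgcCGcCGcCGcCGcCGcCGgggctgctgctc
Dipk2a: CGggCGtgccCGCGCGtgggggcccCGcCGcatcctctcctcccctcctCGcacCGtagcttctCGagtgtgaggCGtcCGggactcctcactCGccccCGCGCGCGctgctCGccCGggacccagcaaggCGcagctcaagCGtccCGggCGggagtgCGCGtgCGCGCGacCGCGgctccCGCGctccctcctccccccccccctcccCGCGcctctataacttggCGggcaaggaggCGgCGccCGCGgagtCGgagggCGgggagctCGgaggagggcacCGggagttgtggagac
Nfe2l2: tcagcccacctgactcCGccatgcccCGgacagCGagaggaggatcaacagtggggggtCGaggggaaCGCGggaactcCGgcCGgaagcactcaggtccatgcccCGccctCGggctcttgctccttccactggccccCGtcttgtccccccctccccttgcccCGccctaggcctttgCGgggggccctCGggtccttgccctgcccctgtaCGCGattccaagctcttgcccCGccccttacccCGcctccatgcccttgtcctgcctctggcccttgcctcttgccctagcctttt
Gstp3: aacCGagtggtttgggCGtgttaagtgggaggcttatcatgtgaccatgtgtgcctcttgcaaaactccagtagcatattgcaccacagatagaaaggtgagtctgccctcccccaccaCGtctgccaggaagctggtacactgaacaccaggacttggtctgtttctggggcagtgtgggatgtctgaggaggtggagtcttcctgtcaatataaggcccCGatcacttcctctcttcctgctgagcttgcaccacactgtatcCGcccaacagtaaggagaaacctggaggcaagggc

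The Kdm7a window held 65 CpG, that of Kmt2c 56, Dipk2a 43, Zswim6 34, Nfe2l2 18 and Gstp3 5. Over 32851 mouse promoter windows of the same length the median was 7 CpG, with quartiles of 3 and 20. So 4 of the 6 windows lay above the upper quartile, Nfe2l2 lay between the median and that quartile, and Gstp3 lay below the median. The letters GGGCGG, read on both strands and including a CpG, were present in all 6 windows and in 35.66% of all windows. The letters TGACNNNGC, the core of the antioxidant response element that NRF2 reads, were found on either strand in the windows of Nfe2l2 and Zswim6 and in 12.39% of all windows. TATAAA, also read on both strands, was found in Zswim6 alone of the 6 and in 13.62% of all windows. In Zswim6 it lay on the strand opposite to the gene. A match describes the letters of a window and is not evidence of a bound factor.

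The domains at a gene start and those at a last base differed in height. Height is given here as fold enrichment, the authors' ratio of the signal at a summit to the background that the caller estimated in the same library, and the highest value in a domain is used. Averaged over the 12 libraries it ran from 5.57 (Gstp3) to 9.58 (Kdm7a) at the 6 starts and from 2.77 (Slc25a47) to 4.35 (Ahsg) at the 6 last bases. In each library the median was 6.23 to 8.18 over the start domains and 3.41 to 4.61 over the last-base domains. The lowest start domain lay above the highest last-base domain in 12 of 12 libraries. The covered length, which is the sum of the listed peaks in a domain, went the other way at its upper end: its mean was 1941 to 2166 bp at the starts and 1577 to 3287 bp at the last bases. The 2 domains with no strand for their gene split between these ranges, with a mean fold enrichment of 8.61 for Rev3l and 3.75 for Serpina3k.

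**Figure D1:**
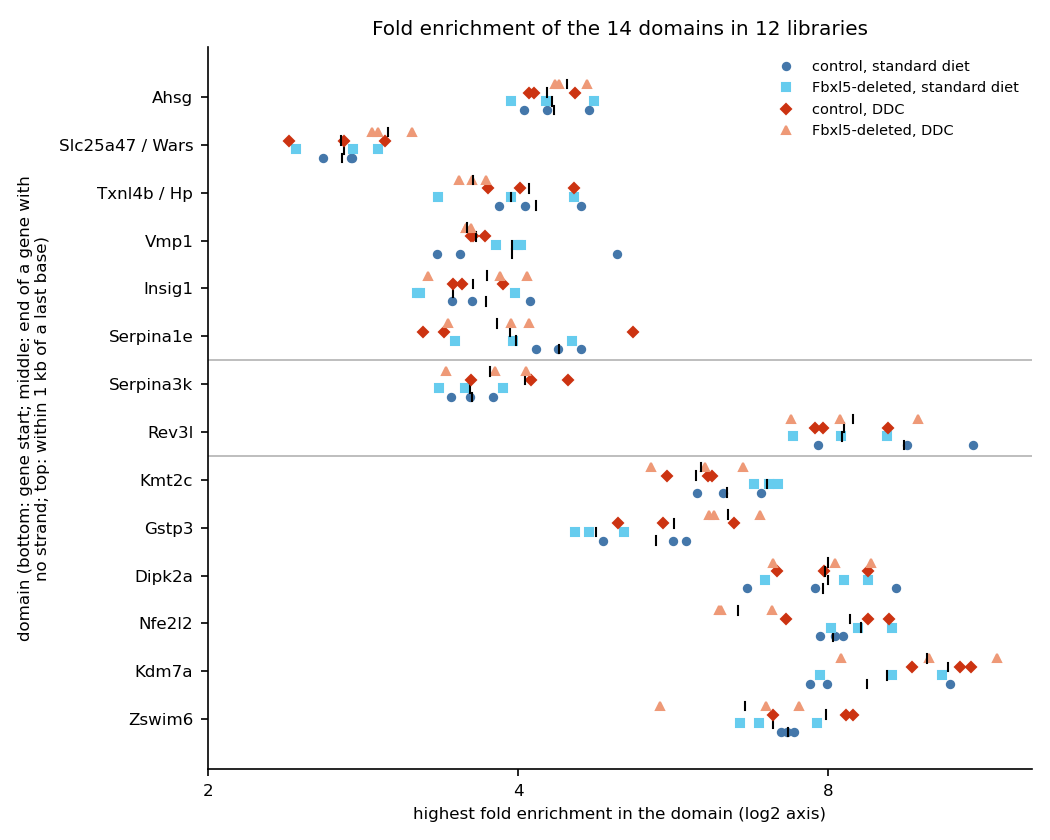
Highest fold enrichment (x axis, log2 scale) of each of the 14 domains (y axis) in every library; points are libraries, coloured by group, and black ticks are group means of 3 libraries. The 6 domains at a gene start lie between 4.54 and 11.7, and the 6 at a last base between 2.40 and 5.17.

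The place of all listed peaks was then read by their width. Peaks narrower than 250 bp held a gene start in 0.710% of cases, averaged over libraries, and those of 1000 to 1500 bp and 1500 to 2000 bp in 62.7% and 65.7%. At 2000 bp or more the share was 41.4%, with 22.2% to 58.3% in single libraries. A last base within 1 kb, with no start in the peak, was found for 2.86% of the narrowest peaks, 1.78% at 1000 to 1500 bp, 6.04% at 1500 to 2000 bp and 36.2% at 2000 bp or more. So the widest class alone had a large share of peaks at the ends of genes. It rests on 4 to 17 peaks per library, and these are in large part the same domains in each list. Of the 124 peaks of that width over all libraries, 85 lay in the 14 domains. The shares in this class thus largely restate the place of the domains. The median fold enrichment of last-base peaks was 4.83 at 1500 to 2000 bp and 3.66 at 2000 bp or more, against 9.24 and 7.27 for peaks holding a start.

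**Figure D2:**
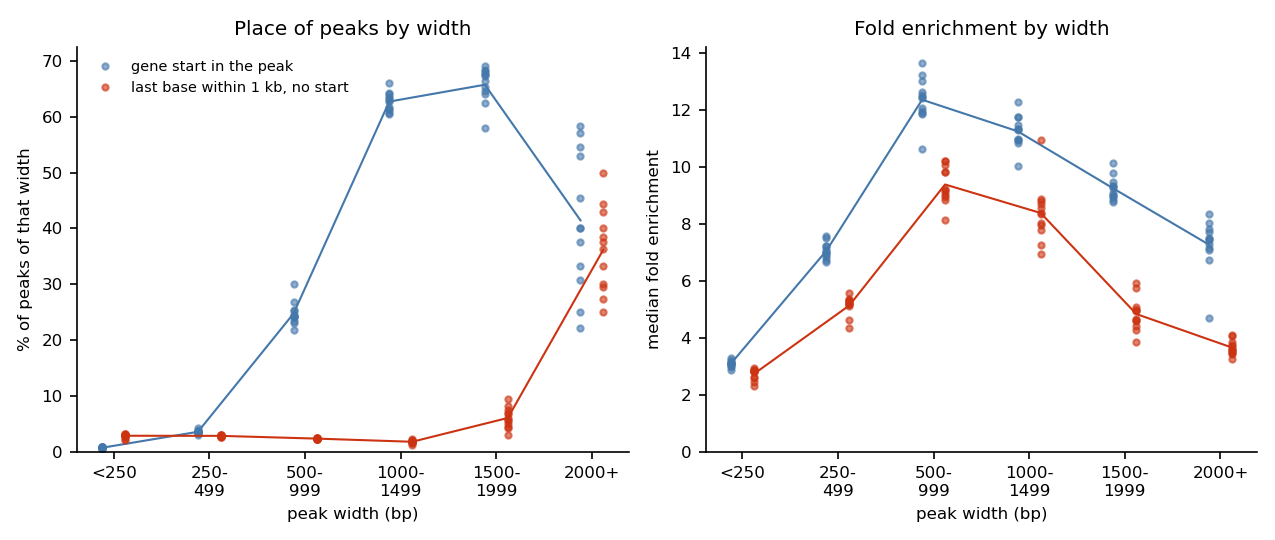
Left, share of peaks (%) that held a gene start or lay within 1 kb of a last base without a start, by peak width in bp; right, median fold enrichment of both kinds. Points are the 12 libraries and lines join their means; last-base peaks make up 36.2% of peaks of 2000 bp or more and 1.78% of those of 1000 to 1500 bp.

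Among the start domains, Nfe2l2 (chr2:75703399-75705492) encodes NRF2, the transcription factor that switches on antioxidant and detoxification genes. Its peaks covered 2037, 2031 and 2000 bp in the control mice on the standard diet, 1953, 1829 and 2080 bp in the deleted mice on that diet, 2073, 2070 and 2003 bp in the controls on DDC, and 1994, 2038 and 2028 bp in the deleted mice on DDC. The domain was thus covered almost whole in every library, from 829 bp before the start to 1264 bp after it. It carried 4 or 5 summits. The highest lay from 532 bp before the start to 142 bp after it, in 1 of 2 separate places. These were chr2:75705142-75705195, before the start, and chr2:75704521-75704600, after it. The median of 208 bp before the start falls between them and marks no summit. In controls on DDC it lay after the start in every library, and in deleted mice on the standard diet before it. The remaining groups held both places.

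Kdm7a (chr6:39205107-39207334) encodes a histone demethylase, and its domain had the highest mean fold enrichment of all 14. The values were 7.68, 7.98 and 10.5 in controls on the standard diet, 7.86, 10.3 and 9.23 in deleted mice on that diet, 9.66, 10.7 and 11.01 in controls on DDC, and 11.7, 10.0 and 8.24 in deleted mice on DDC, so the groups overlapped. The highest summit lay well inside the gene, 1260 to 1350 bp past the start in every library. Dipk2a (chr9:94536955-94539096), which encodes a protein with a divergent kinase domain, had its highest summit before the start, at 431 to 460 bp upstream, and 8 or 9 summits in each library. In both domains the place of the highest summit was thus nearly the same in all libraries.

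Kmt2c (chr5:25497732-25500070) encodes a histone H3 lysine 4 methyltransferase. Its domain also held the start of the lncRNA gene 4831440E17Rik on the opposite strand, and its mean covered length was 2166 bp, the largest of the start domains. Zswim6 (chr13:107889587-107891706), a gene for a zinc finger SWIM domain protein, had the shortest mean covered length of the start domains, 1941 bp. Gstp3 (chr19:4058771-4061137), a pi-class glutathione S-transferase gene, had the lowest mean fold enrichment of the start domains and was at least 2000 bp wide in 9 libraries. Its highest summit lay 1123 to 1556 bp before the start site of the window printed above. Gstp3 is one of a cluster of near-identical Gstp genes, so the placement of reads between the copies is uncertain.

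Rev3l (chr10:39731087-39733238) encodes the catalytic subunit of DNA polymerase zeta, which copies past damaged bases. The domain held an end of the gene and an end of the lncRNA gene E130307A14Rik. It covered 1929 to 2152 bp over the libraries, had 7 to 9 summits and reached a fold enrichment of 7.36 to 11.1.

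Of the domains at a last base, the one at Slc25a47 (chr12:108856471-108859850) was the only one of the 14 at least 2000 bp wide in all 12 libraries. Slc25a47 encodes a mitochondrial carrier made chiefly in liver, and an end of Wars, the gene of the cytosolic tryptophanyl-tRNA synthetase, lay 180 bp from the domain on its far side. Covered length was 3248, 3235 and 3242 bp in controls on the standard diet, 3253, 3297 and 3269 bp in deleted mice on that diet, 3257, 3150 and 3113 bp in controls on DDC, and 3212, 3372 and 3186 bp in deleted mice on DDC. The genotypes overlapped on DDC, and all values lay between 3113 and 3372 bp. It was the lowest of all the domains, with a fold enrichment of 2.40 to 3.16, and its median value exceeded only 28.3% of the peaks of the same library. The domain found wide most often was thus also the lowest.

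Ahsg (chr16:22898218-22901870) encodes fetuin-A, an abundant plasma glycoprotein. Its domain was the longest, began 1233 bp before the last base and ran 2419 bp past it, and was at least 2000 bp wide in 11 libraries. It carried the most summits, 9 to 13 per library. Those summits were highest 533 to 899 bp past the last base. The lncRNA gene Gm30611 lies on the opposite strand in its far portion.

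The domain between Txnl4b and Hp (chr8:109571431-109574918) held the last base of Txnl4b, a thioredoxin-like splicing protein, and ended 210 bp from an end of Hp, the gene of haptoglobin, which binds free hemoglobin in plasma. Vmp1 (chr11:86580120-86582887) encodes an endoplasmic reticulum membrane protein that acts in autophagy, and its domain began 971 bp past the last base. Insig1 (chr5:28078972-28081164) encodes the endoplasmic reticulum protein that holds back SREBP activation when sterols are plentiful. The domain began 310 bp past its last base and lay inside the lncRNA gene Gm35223 on the opposite strand.

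Both serpin domains lay in the chromosome 12 cluster of serine protease inhibitor genes that are secreted from hepatocytes. The domain at Serpina1e (chr12:103944213-103946692), an alpha-1-antitrypsin gene, began 239 bp past the last base. The domain at Serpina3k (chr12:104345498-104348139), a gene of the antichymotrypsin family, held an end of the gene. Near-identical neighbours exist for both genes, so the placement of reads there is uncertain.

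**Figure D3:**
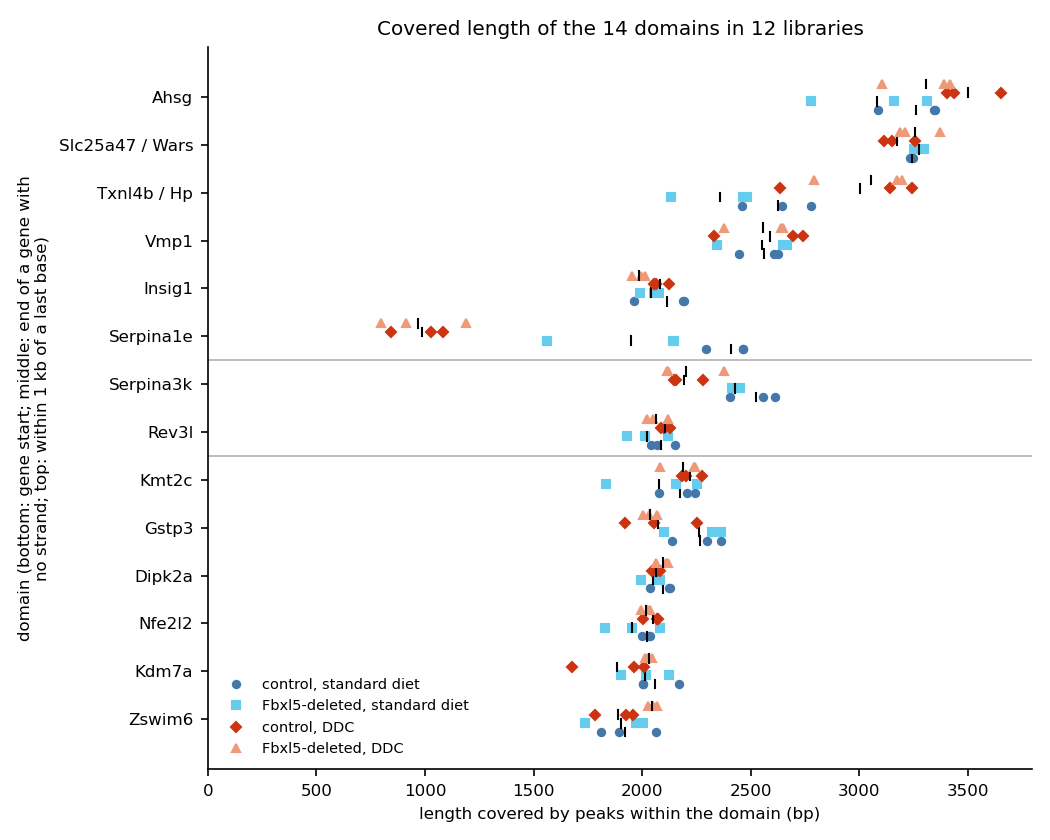
Covered length (bp, x axis) of each of the 14 domains (y axis) in every library; points are libraries, coloured by group, and black ticks are group means of 3 libraries. Slc25a47 stays between 3113 and 3372 bp, and Serpina1e falls into separate ranges of 797 to 1187 bp on DDC and 1562 to 2465 bp on the standard diet.

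The serpin domains were shorter on DDC in both genotypes. Serpina1e reached 2000 bp in 2 of 3 control and 1 of 3 deleted libraries on the standard diet, and in 0 on DDC. It thus became a domain through standard-diet libraries alone, so its shorter length on DDC was partly built into the rule. Serpina3k reached 2000 bp in 3 of 3 standard-diet and 1 of 3 DDC libraries of each genotype. At Serpina1e the covered length was 2465, 2296 and 2465 bp in controls on the standard diet and 1562, 2146 and 2144 bp in deleted mice on that diet. On DDC it was 1027, 1084 and 841 bp in controls and 797, 1187 and 914 bp in deleted mice. All 6 DDC libraries lay below all 6 standard-diet libraries, with means of 975 ± 150 bp (SD, n = 6) and 2180 ± 335 bp (SD, n = 6). The number of summits went from 6.67 ± 2.08 to 3.67 ± 1.53 in controls and from 6.67 ± 0.58 to 3.67 ± 0.58 in deleted mice (SD, n = 3 each), and the summit ranges touched in the controls at 5. The longest single peak was 310 to 583 bp on DDC and 605 to 2465 bp on the standard diet, while the number of peaks overlapped, with 2 to 5 on DDC and 1 to 6 on the standard diet.

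At Serpina3k the covered length was 2556, 2614 and 2407 bp in controls and 2424, 2450 and 2415 bp in deleted mice on the standard diet. On DDC it was 2156, 2280 and 2145 bp in controls and 2376, 2116 and 2119 bp in deleted mice. Again the 6 DDC libraries lay below the 6 standard-diet libraries, with means of 2199 ± 106 and 2478 ± 86 bp (SD, n = 6). Without the libraries that stood apart, the standard-diet means were 2343 ± 154 bp at Serpina1e and 2507 ± 95 bp at Serpina3k (SD, n = 4), and neither domain overlapped between the diets. These 2 of 14 domains were shorter without overlap and 0 were longer; among 168359 regions listed in at least 3 libraries, 0.456% were shorter and 3.33% longer by the same rule. Width chose the domains, so nothing is read from that contrast.

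Other domains differed between the diets in 1 genotype. The Txnl4b and Hp domain covered 2482, 2464 and 2131 bp in deleted mice on the standard diet and 3173, 3198 and 2790 bp in deleted mice on DDC, which did not overlap. In controls it covered 2643, 2778 and 2459 bp on the standard diet and 3244, 3140 and 2633 bp on DDC, which did overlap. It reached 2000 bp in a single peak in 4 of 6 DDC libraries and in 0 of 6 on the standard diet. It thus became a domain through DDC libraries alone, so its greater length on DDC was partly built into the rule. The same stretch was listed as 3 to 6 peaks on the standard diet and as 2 to 4 on DDC, so the peak numbers overlapped. The Ahsg domain covered 3344, 3350 and 3087 bp in controls on the standard diet and 3406, 3653 and 3438 bp in controls on DDC. Gstp3 covered 2103, 2324 and 2364 bp in deleted mice on the standard diet and 2002, 2070 and 2033 bp in deleted mice on DDC. Ahsg was thus longer on DDC in controls, and Gstp3 shorter on DDC in deleted mice, each without overlap.

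Within controls, 1 domain was longer on DDC without overlap (Ahsg) and 2 were shorter (both serpin domains), where the shares over all 168359 regions were 16.0% and 5.01%. Within deleted mice 2 were longer (Txnl4b and Hp, Zswim6) and 3 shorter (both serpin domains, Gstp3), against 9.92% and 3.43%. Between genotypes on the standard diet 1 domain was longer in deleted mice (Slc25a47) and 1 shorter (Serpina1e), against 2.95% and 4.59%. On DDC 2 were longer (Zswim6, Kdm7a) and 1 shorter (Insig1), against 2.67% and 6.54%. Kdm7a reached 2000 bp in 2 of 3 deleted libraries on the standard diet, 1 of 3 on DDC and 0 in controls. It thus became a domain through deleted libraries alone, so its greater length in deleted mice was partly built into the rule. Zswim6 was the only domain at least 2000 bp wide in 3 of 3 libraries of one group and 0 of 3 of the group it was compared with: its longest peak was 2068, 2026 and 2049 bp in deleted mice on DDC and 1753, 1781 and 1198 bp in controls on DDC. On the standard diet it reached that width in 1 of 3 libraries of each genotype. Without the deleted mice on DDC it would not have met the rule, so its greater length there was partly built in. The counts of domains without overlap are small, and no test was applied to them.

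Whether a domain reached 2000 bp in a given library depended largely on short gaps. Of 168 domain-by-library values, 85 had a single peak of at least 2000 bp. Among the other 83 the domain was listed as several peaks in 76, and the peaks together still covered at least 2000 bp in 55. The gaps between the peaks of a split domain summed to a median of 60.5 bp, with a range of 1 to 855 bp. Summits within a domain lay a median of 310.75 bp apart, with domain medians of 228.25 to 407.25 bp. The domains nearest the threshold, by the third-widest library, were Kdm7a at 2017 bp, Kmt2c at 2039 bp and Insig1 at 2044 bp, and the regions nearest outside it were Pde3b at 1994 bp, Scaf11 at 1964 bp and Plbd2 at 1963 bp.

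The number of wide peaks and the number of summits varied as much within as between the 4 groups. Peaks of at least 2000 bp numbered 13, 10 and 9 in controls and 4, 9 and 11 in deleted mice on the standard diet, and 7, 16 and 5 in controls and 11, 17 and 12 in deleted mice on DDC. The mean was 2 higher on DDC than on the standard diet and 0.667 higher in deleted than in control mice, both under the spread within groups (pooled SD 3.94). Scaled to the mean list length the differences were 1.01 and -0.754, so the sign between genotypes was not settled. The mean number of summits per domain was 7.26 ± 0.11 in controls and 7.38 ± 0.08 in deleted mice on the standard diet, and 7.29 ± 0.52 and 7.17 ± 0.36 on DDC (SD, n = 3 each).

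Fold enrichment was then tested. It was not used to choose the domains, although it comes from the same peaks as the width. The strongest 137004 peaks of each library were used, their values were replaced by rank so that all libraries shared 1 distribution, and log2 values of 138589 merged regions were compared with limma, with Benjamini-Hochberg adjustment over all of them. All 14 domains were among the regions tested, 13 with a value from all 12 libraries. The Slc25a47 domain was among the strongest peaks in 10 libraries, and in the other 2 it took the lowest value of the scale. Regions at an adjusted p under 0.05 were called, and every log2 difference below is DDC minus standard diet or deleted minus control on this ranked scale.

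On DDC in controls, 0 of 14 domains were called by limma, where 7.02% of all regions were called, and 0 had an unadjusted p under 0.05. On DDC in deleted mice 0 of 14 were called, against 3.16% of all regions, and 2 had an unadjusted p under 0.05. For the deletion on the standard diet and on DDC 0 of 14 were called, against 0.000722% and 0.0% of all regions, with 0 at an unadjusted p under 0.05 in each. For the difference between the diet effects of the genotypes 0 of 14 were called, against 0.0%, and again 0 had an unadjusted p under 0.05. With 7.02% called, about 1 call among 14 regions would already match the background, so a count of 0 does not set the domains apart.

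The intervals show what sizes the fit reported leaves possible. The 95% intervals of the 14 domains ran from -0.85 to 0.52 for DDC in controls and from -1.01 to 0.64 in deleted mice. They ran from -0.50 to 0.75 for the deletion on the standard diet and from -0.65 to 0.75 on DDC. In that fit a change of 1 on the log2 scale, which is a doubling, lay outside every interval but 1 for these contrasts, that of Nfe2l2 on DDC in deleted mice. This did not hold for every setting. Over the alternative fits the difference at Kdm7a for the deletion on DDC ran from -0.15 to 1.06.

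The median difference on DDC was -0.16 over the domains in controls and -0.22 in deleted mice, and -0.01 and 0.01 over all regions. It was below 0 for 12 of 14 domains in each genotype, against 51.0% and 47.2% of all regions. That direction depended on the scale: with all listed peaks in place of the strongest it was below 0 for 1 of 14 in controls and 14 of 14 in deleted mice, and with peaks of a −log10 q of at least 5 for 4 of 14 and 6 of 14. The median of all regions moved to 0.27 and -0.07 with all listed peaks and to 0.11 and 0.27 with the stricter peaks. For the deletion, 3 of 14 domains were below 0 on the standard diet and 4 of 14 on DDC, against 49.2% and 48.8% of all regions, with medians of 0.14 and 0.08. This direction depended on the scale too. With all listed peaks 0 of 14 were below 0 on the standard diet and 8 of 14 on DDC. With peaks of a −log10 q of at least 5 the counts were 10 of 14 and 7 of 14. Without both libraries that stood apart the standard-diet median was 0.05.

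Nfe2l2 had the largest difference of all domains. Its highest fold enrichment was 8.27, 8.13 and 7.86 in controls on the standard diet and 7.28, 9.17 and 8.74 in controls on DDC. In deleted mice it was 8.05, 8.55 and 9.22 on the standard diet and 7.06, 6.26 and 6.30 on DDC. The 3 deleted libraries on DDC lay below the 9 others. On the ranked scale DDC minus standard diet was -0.63 ± 0.19 (SE) in deleted mice, with a limma adjusted p of 0.0706, and -0.08 ± 0.19 in controls, with an adjusted p of 0.854. The difference between these effects was -0.54 ± 0.26, with a limma adjusted p of 0.849, so the genotypes were not shown to differ. Without libraries 1 and 3 of the deleted mice on the standard diet the difference in deleted mice was -0.42, with an adjusted p of 0.584. Covered length at Nfe2l2 did not move with this: it was 1954 ± 126 bp on the standard diet and 2020 ± 23 bp on DDC in deleted mice (SD, n = 3).

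Kmt2c was the other domain with an unadjusted p under 0.05. Its fold enrichment was 7.01, 6.78 and 7.15 in deleted mice on the standard diet and 6.61, 5.38 and 6.07 on DDC, which did not overlap. On the ranked scale the difference was -0.46 ± 0.21 (SE), with a limma adjusted p of 0.272. It was 0.19 where a peak had to overlap its region by 50% both ways, and -0.21 without libraries 1 and 3 of the deleted mice on the standard diet, with a limma adjusted p of 0.854.

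Gstp3 went the other way as deposited. Its fold enrichment was 4.69, 4.54 and 5.07 in deleted mice on the standard diet and 6.13, 6.20 and 6.87 on DDC, without overlap. On the ranked scale that difference was 0.16 ± 0.23 (SE), with a limma adjusted p of 0.752. Of the 3 on the standard diet, the 2 libraries that stood apart, whose median ratios were low, gave 4.69 and 5.07. The lowest value, 4.54, came from library 2, which did not stand apart.

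The serpin domains, whose covered length differed with diet in both genotypes, did not pass the test on height. Nor did the Txnl4b and Hp domain, whose covered length was apart between the diets in deleted mice only. At Serpina1e the fold enrichment was 4.37, 4.16 and 4.61 in controls on the standard diet and 3.23, 5.17 and 3.39 on DDC, and the ranked difference was -0.35 ± 0.24 (SE), with a limma adjusted p of 0.450. In deleted mice it was -0.28 ± 0.24, with an adjusted p of 0.580. At Serpina3k the ranked differences were 0.03 ± 0.24 and -0.17 ± 0.24, and at Txnl4b and Hp -0.17 ± 0.24 and -0.32 ± 0.24, with limma adjusted p values of 0.531 to 0.966. The domain that was shortest on DDC was thus not shown to change in height.

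**Figure D4:**
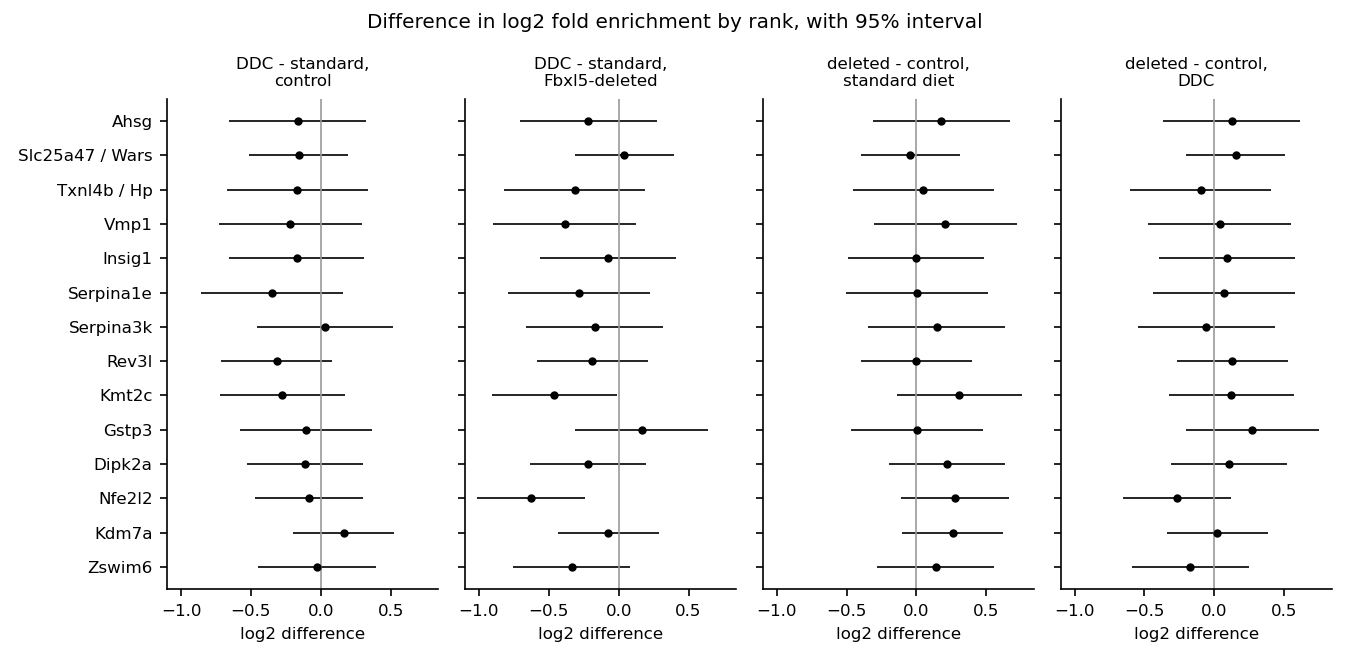
Difference in ranked log2 fold enrichment (x axis) of the 14 domains (y axis) for 4 contrasts, with 95% intervals from limma. Nfe2l2 and Kmt2c on DDC in deleted mice are the 2 whose interval leaves out 0; none was called after adjustment.

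The neighbourhood of the domains was read from the same fit. Within 25000 bp of the 14 domains 109 other regions were tested. On DDC in controls 5 were called higher and 3 lower, where 4.67% and 2.35% of all regions were, and in deleted mice 3 were higher and 2 lower, against 2.42% and 0.745%. In each genotype contrast, and for the difference of diet effects, 0 of the 109 were called by limma.

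In controls, 2 regions near Nfe2l2 and 1 near Kdm7a were called lower on DDC. Each was listed in 3 of 3 control libraries on the standard diet and 0 of 3 on DDC, where it took the lowest value. None would have passed the filter of at least 3 libraries without the standard-diet controls, so nothing beyond their listing is read from this test. Near Kmt2c the region chr5:25509275-25510481 rose by 0.82 ± 0.23 (SE) in controls, with a limma adjusted p of 0.0311. The serpin domains and Vmp1 had neighbours that passed the test as well. Near Vmp1 a region at chr11:86593059-86593489 was listed in 3 of 3 DDC libraries and 0 of 3 standard-diet libraries of each genotype. It rose by 0.98 ± 0.23 in controls (limma adjusted p 0.0130) and by 1.29 ± 0.23 in deleted mice (limma adjusted p 0.00373). It passed the filter of at least 3 libraries through DDC libraries alone. Its standard-diet values were all the lowest value of the scale, so nothing beyond its listing is read from this test. Near Serpina3k the region chr12:104366308-104366929 rose by 1.48 ± 0.34 and 1.33 ± 0.34, with limma adjusted p values of 0.0111 and 0.0362. A second region there, chr12:104351887-104352155, was called higher, by 0.79 ± 0.24 and 0.89 ± 0.24. It was listed in 3 of 3 DDC libraries and 1 of 3 standard-diet libraries of each genotype, and took the lowest value elsewhere. Without DDC libraries it would not have passed the filter, so nothing beyond its listing is read. Near Serpina1e the changes had both signs: chr12:103952981-103953356 rose by 1.14 ± 0.24 in controls (limma adjusted p 0.00687), while in deleted mice chr12:103935646-103936204 fell by 1.37 ± 0.27 (limma adjusted p 0.00746) and chr12:103961651-103962078 fell by 1.13 ± 0.30 (limma adjusted p 0.0429). Regions near the shorter serpin domains thus rose as well as fell.

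The starts of the last-base genes were tested as regions of their own. At Serpina1e the start region changed by -0.55 ± 0.21 in controls and -0.68 ± 0.21 in deleted mice on DDC, with limma adjusted p values of 0.132 and 0.0878. None of the regions at the starts of Insig1, Txnl4b, Vmp1, Slc25a47, Serpina1e and Ahsg was called in any contrast. The promoter windows of these genes held 38 CpG at Insig1, 20 at Txnl4b, 7 at Slc25a47, 6 at Ahsg and 3 at Serpina1e, and 28, 22 and 1 at 3 start sites of Vmp1.

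Gene lists were set against the domains by place alone. Of 39 plasma protein genes, 3 had an end at a domain: Ahsg, Hp and Serpina3k. Of 23 antioxidant genes 1 did, Nfe2l2, and of 28 lipid and insulin response genes 1 did, Insig1. The lists of hepatocyte transcription factors, early response, circadian clock, iron handling, heme, bile acid, biliary and YAP, metabolic zonation and housekeeping genes had 0. The marker lists of macrophages (12 genes), endothelial cells (12), stellate cells (11), cholangiocytes (10) and lymphocytes (10) also had 0 at a domain. At the looser width of 1500 bp, which gave 309 regions, 7 of the 39 plasma protein genes had a region. So did 4 of the 28 lipid and insulin response genes (Igfbp1, which is on both lists, Insig1, Pnpla3, Tat) and 3 of 21 metabolic zonation genes (G6pc, Pck1, Sds). Early response (Btg2, Ier5), biliary and YAP (Tead1, Wwtr1) and housekeeping genes (Eef1a1, Hsp90ab1) had 2 each. Nfe2l2, Hhex of the hepatocyte transcription factors, Ftl1 of the iron handling genes and Cd14 of the macrophage markers were the only ones of their lists.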

How the data were processed

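ATAC-seq was done on hepatocytes of 12 mice, and each library has its own deposited peak list, made by the authors without pooling replicates. Per the submitters' processing notes the tools were MACS2, Bowtie2, fastp, Picard, SAMtools, deepTools and bedtools, with the build mm10; for their versions, their settings and a transposase shift, nothing was given in the sources used here. Fold enrichment is the deposited ratio of summit signal to the background estimated within the library. For −log10 p and −log10 q the values are those of the authors' caller; −log10 q served in 1 alternative. Depth is unknown, and the number of listed peaks limits precision in its place.

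From these lists the domains, covered length, summits and highest fold enrichment were computed in Python 3.11.15. A domain was named after the gene with an end in it or within 1 kb of it, from the RefSeq table for GRCm38.p6, in which 17274 of 21631 protein-coding genes had a strand. limma 3.58.1 in R 4.3.3 (4 group means, trend and robust options, two-sided) was fitted to 138589 regions found in at least 3 libraries; a region missing from a library took the lowest log2 value, 1.27. The scripts were tested on simulated data. Replicates are different mice, per the labels. Alternatives changed the peaks used, filter, overlap, scaling, value of a region, replicate block, covariate, width, number of libraries and libraries left out. Named were the 10 domains with the largest covered length, those called, those nearest the threshold, those with the most summits, those of the gene lists and those wide in all libraries of one group and none of another. Serpina1e fell outside this rule and was named after its values were seen. Regions near the domains are counted where called, and those at the serpin genes, Vmp1 and Kmt2c are named. The domains and gene lists were chosen with earlier results of these data known.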

Additional observations from a re-analysis of the deposited data

How the results depend on the processing

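In all 5 contrasts 0.0% of the domains were called in the fit reported and in 21 alternative fits, leave-one-out fits included. With a width of 1500 bp there were 309 domains. Of these 0.324% were called on DDC in controls and 0.647% in deleted mice, below the 7.02% and 3.16% of all regions. There were 2 domains at 3000 bp, 44 where 1 library sufficed and 6 where 6 were needed, and 12 to 14 with 1 library left out or without both libraries that stood apart. The difference in wide peaks between deleted and control mice was -27.5 at 1500 bp and -0.6 to 2.25 with libraries left out, and that between DDC and standard diet 0.867 to 3.27. The causes were not tested. The number of all regions called on DDC was 9723 in controls and 4385 in deleted mice. It was 4599 and 2027 with no filter, 5166 and 1335 with 50% overlap, 6001 and 5013 at a −log10 q of at least 5, and 3139 and 2140 with log2 peak number as covariate. With all listed peaks it was 14411 and 3197, of which 13387 and 1793 were higher, against 6469 and 3352 in the fit reported. Deleted against control mice gave 1 called region under the standard diet and 0 under DDC, and these counts were 384 and 410 at a −log10 q of at least 5 and 152 and 265 with 50% overlap, which also called 74 for the difference of diet effects. With all listed peaks they were 176 and 0, and without deleted standard-diet library 2 the first was 96. Without control DDC library 2 it was 5001 in controls, and without both libraries that stood apart 1195 in deleted mice. With the replicate number as a block 0.0% of the domains and 9384 and 4164 regions were called; same-numbered libraries correlated at -0.024 to 0.057 in their deviations, other pairs at -0.043 to 0.026, and 7 of 12 libraries lay closest to their own number, so the numbers were not taken as pairs.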
